A study of Homo sapiens with 2 samples.

Results

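The sites described here are weakly methylated adenosines of poly(A)-selected HEK293T RNA that were read deeply in both libraries of the series. A site was taken when both deposited lists held it at the same chromosome, position and strand, with at least 100 reads of A or G and a methylation level under 20% in each. This gave 2753 weak sites, which were 4.55% of the 60462 shared sites and 26.8% of the 10284 shared sites with at least 100 reads in both lists (95% Wilson interval 25.9 to 27.6). They were set beside the other 7531 such deep sites. The members were thus chosen by their measured level and coverage, which are given as a description. The counts were tested only between the replicates, a comparison that the rule itself limits.

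Both libraries came from wild-type HEK293T cells, an established human embryonic kidney line, labelled Day 0 and treated by GLORI after poly(A) selection with oligo(dT) beads. There is 1 group with 2 replicates and no control library, so all comparisons are between sites and genes of the same libraries. The labels do not say whether the replicates were separate cultures. The lists give methylated sites and not expression, so the markers of the cell line were not checked. Replicate 1 listed 72449 sites holding 5221660 reads, and replicate 2 listed 81554 sites holding 6306522 reads. No list holds a level below 10%, so a weak site here lies between 10% and 20%.

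N6-methyladenosine (m6A) is the most common internal mark of messenger RNA. It is placed by a methyltransferase complex of METTL3 and METTL14, mostly at adenosines in a short sequence consensus, read by YTH-domain proteins and removed by ALKBH5 and FTO. In GLORI, glyoxal and nitrite turn adenosine without the methyl group into inosine, read as G, while m6A is still read as A. The level of a site is its A reads over its A plus G reads. The authors also list a conversion for each gene, taken here as the fraction of its adenosines read as G. An adenosine at the first transcribed nucleotide of an mRNA often carries a related mark beside the cap, N6,2′-O-dimethyladenosine, which this readout does not tell from m6A.

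Letters around a site could be read only where a RefSeq table of GRCh38.p14 holds them, which covers 250 bases before to 50 after annotated gene starts and the microRNA hairpins. Of the shared sites, 1052 lay in the windows at gene starts, and the letter at the site was A in all 1052. The windows held 79 of the weak sites (2.87%) and 107 of the other deep sites (1.42%). The following weak sites had the most reads among those in the first 10 bases after a RefSeq start and outside the m6A consensus, and are shown because nearly all sites at starts share the kind of letter before the adenosine. Each run has 21 letters from 5′ to 3′, with the site at the centre and the 5 letters around it in capitals.
TUBB, chr6:30720347-30720367, plus strand: tctccctcTCAGAaccttcct
BTF3, chr5:73498438-73498458, plus strand: gcctccctTTAGCtgccatct
ENO1, chr1:8878673-8878693, minus strand: cgcggacaGTATCtgtgggta
CFL1, chr11:65858166-65858186, minus strand: ggccgcgtTCAGTcgggtccc
DUT, chr15:48332187-48332207, plus strand: ggcgacgcTCATCgtgcgctc
SNRPD3, chr22:24555989-24556009, plus strand: taggcccgCCATTcgcttgac
All 6 have a C or T directly before the adenosine in the genome, which for DUT and SNRPD3 lies before the annotated start. TUBB encodes a beta-tubulin, and its site 5 bases after the first base of the start had a level of 10.3% in replicate 1 (3309 reads) and 10.01% in replicate 2 (3646 reads). ENO1 encodes the glycolytic enzyme enolase, and its site had 12.4% of 1412 reads and 10.1% of 1668 reads. DUT, which encodes dUTPase, and SNRPD3, a core spliceosomal Sm protein gene, had their sites at the first base of the start, with 12.6% and 11.9% for DUT and 14.65% and 17.2% for SNRPD3.

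Over all weak sites in the first 5 bases of a RefSeq start, 33 of 34 followed a C or T (97.1%, interval 85.1 to 99.5). Of the other deep sites there, 59 of 63 did (93.7%, 84.8 to 97.5), against 99 of 214 unlisted adenosines in these positions of the same windows (46.3%). The intervals of both kinds overlapped. The unlisted adenosines were not required to have reads and were not matched by position within these 5 bases. At the first base stood 24 of the 34 weak and 51 of the 63 other sites. For these the letter before the site is genomic and lies outside the annotated transcript. The part of position in the contrast with unlisted adenosines was not tested. The median level of the start sites was 14.7% in the weak class and 31.2% in the other class. At the start of TUBB4B, another beta-tubulin gene, both kinds stood 3 bases apart. The weak site had 15.8% of 506 reads in replicate 1 and 16.15% of 545 in replicate 2, and the first base of the start had 77.5% of 289 and 80.06% of 311 reads. The pair is shown because both levels were found at 1 annotated start, and it was chosen after its values were seen. Whether the same transcripts carried both was not tested.
TUBB4B weak site, chr9:137241280-137241300, plus strand: cggttgtaGCACTctgcgcgc
TUBB4B strong site, chr9:137241277-137241297, plus strand: cgtcggttGTAGCactctgcg

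A further set of weak sites lay in the m6A consensus. The consensus searched was 5 letters on the transcript strand, with A, G or T first, A or G second, then A, then C, and A, C or T last (DRACH). The 4 weak sites of this kind with the most reads follow, all of them 54 to 171 bases before a RefSeq start, and then the 3 other deep sites with the highest levels among those in the consensus within these windows. They are shown because both kinds can carry the same letters.
NTPCR, weak, chr1:232950661-232950681, plus strand: cccaacctGGACTgctcccct
BAG6, weak, chr6:31652526-31652546, minus strand: ggggctgcGGACTttctcgtc
UBE2D3, weak, chr4:102826902-102826922, minus strand: tgggctccGGACCctgccccg
RTN4, weak, chr2:55049813-55049833, minus strand: gcccgtgtGGACCccgccagc
CES2, other, chr16:66935437-66935457, plus strand: cccacctaTGACTgctcagtc
CREBZF, other, chr11:85663725-85663745, minus strand: ccttagtgGGACAtcttcacc
ARIH1, other, chr15:72474357-72474377, plus strand: ggcgttggGGACTgttttctc
NTPCR, a nucleoside triphosphatase gene, had 10.9% of 512 reads in replicate 1 and 11.7% of 673 in replicate 2. BAG6, which encodes a chaperone for misfolded membrane proteins, had 18.3% of 262 and 19.03% of 310. ARIH1, a ubiquitin ligase gene, had 82.5% and 91.5%, and CES2, a carboxylesterase gene, had 93.5% and 87.3%. NTPCR, BAG6 and ARIH1 share the same central letters, GGACT, at levels under 20% in NTPCR and BAG6 and above 80% in ARIH1.

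In the windows, 15 of 79 weak sites (18.99%, interval 11.9 to 28.99) and 21 of 107 other deep sites (19.6%, 13.2 to 28.1) lay in the consensus. Among unlisted adenosines of the same windows 868 of 12620 did (6.88%). Most of each window lies before the annotated start, and the unlisted adenosines were not required to have reads. They are a background of sequence and not of adenosines found unmethylated. Outside the first 5 bases the shares were 14 of 45 weak sites (31.1%, 19.5 to 45.7) and 19 of 44 other sites (43.2%, 29.7 to 57.8), with overlapping intervals. The order over all windows turned under 4 alternatives, among them 300 reads or more (15.38% of weak and 15% of other sites). GGACT itself was at 6 of 79 weak sites and 8 of 107 other sites. These windows hold under 3% of the weak sites, and the letters around the remaining sites were not analysed here.

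Only 1 weak site lay in a microRNA hairpin of RefSeq's table. The hairpin MIR1182 (chr1:231019828-231019924, minus strand) lies in FAM89A and held 3 deep sites, which are shown because a weak site stood between a pair of almost fully methylated ones.
FAM89A, weak site, chr1:231019875-231019895, minus strand: uccagcagCGACUggauucug
FAM89A, first strong site, chr1:231019911-231019924, minus strand: gGGACUugucacug
FAM89A, second strong site, chr1:231019832-231019852, minus strand: gagggaugUGACUguugggaa
The weak site at position 231019885 had 14.4% of 174 reads in replicate 1 and 12.7% of 204 in replicate 2. Position 231019921 had 99.1% and 98.1%, and position 231019842 had 99.02% and 93.4%. Both strong sites matched the consensus, and the weak site, with C as its first capital letter, did not.

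Levels of the weak sites ran from 10.0% to 19.95% in replicate 1 (median 14.1%, quartiles 12.1 and 16.5) and from 10.0% to 19.96% in replicate 2 (median 14.1%, quartiles 11.97 and 16.3). The other deep sites had medians of 45.5% and 45.3%. Weak sites had a median of 170 reads in replicate 1 and 199 in replicate 2, against 152 and 178 at the other deep sites. The deepest weak site was in RPSA, a small-subunit ribosomal protein gene (position 39411962 of chromosome 3, plus strand), with 11.7% of 9179 reads and 11.3% of 10781 reads. RACK1, a scaffold protein of the ribosome, followed with 17.4% of 7815 and 17.7% of 9278 reads (position 181239108 of chromosome 5, minus strand). The replicates gave nearly the same level at these sites.

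The other sites among the 10 deepest are given next, except 1 without a gene name. EEF2, elongation factor 2, held a pair of them on chromosome 19 (minus strand), with 16.7% and 16.5% at position 3976576 and 12.02% and 11.4% at position 3980010. TUBB had 18.01% of 7158 reads and 19.2% of 8371 at position 30723739. RPL36, a large-subunit ribosomal protein gene, had 14.4% and 13.7% at position 5691617. CKB, brain-type creatine kinase, had 12.4% of 4866 and 11.9% of 5852 reads at position 103520286 of chromosome 14. EEF1A1, elongation factor 1 alpha, had 12.1% and 11.9% at position 73519371 of chromosome 6. One of the 10 deepest was in RPL3P3, a processed pseudogene of RPL3, with 16.8% of 7201 and 16.3% of 8527 reads. Its reads may belong in part to RPL3, since the copies are alike.

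Between replicates the level of a weak site differed by a median of 1.68 percentage points, and 95% differed by less than 5.53 points. It was higher in replicate 1 at 1401 sites and higher in replicate 2 at 1344. Fisher's exact test, two-sided with Benjamini-Hochberg adjustment over all 60462 shared sites, called 0 weak sites, beside 0% of all shared sites called. At an unadjusted p under 0.05 there were 32 weak sites (1.16%), against 384 other deep sites (5.10%) and 3.06% of all shared sites. A chi-square test scaled by the dispersion also called 0. No test here told the libraries apart, which does not show that they are alike. They are counted as 1 sample, both values are printed and no SD is given. Since both levels had to lie between 10% and 20%, the rule fixed the low count among weak sites, and nothing is read from it. The 95% Wilson interval on the summed counts reached a median of 3.56 points to each side, and at 2014 weak sites (73.2%) its upper bound stayed under 20%. Intervals cover counting error only.

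**Figure D1:**
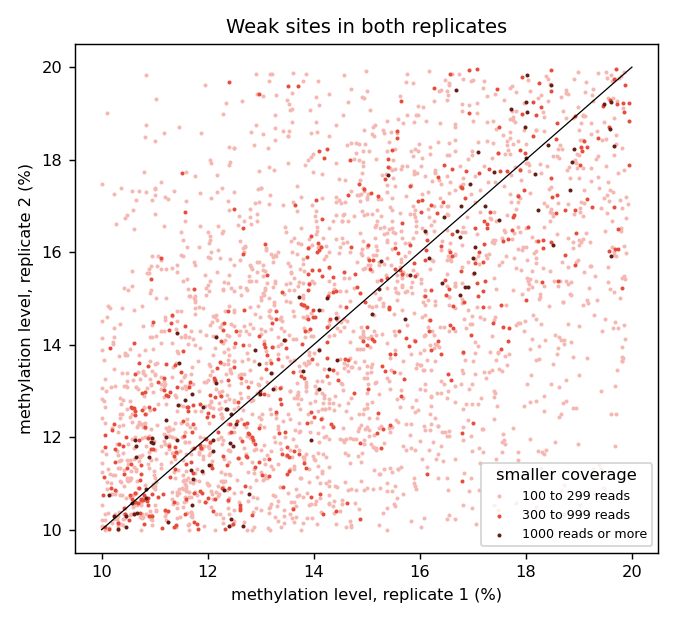
Methylation level of each of the 2753 weak sites in replicate 1 (x axis, %) and replicate 2 (y axis, %), coloured by the smaller of its 2 read counts. The line marks equal levels, the edges at 10% and 20% are set by the lists and by the rule, and sites of higher coverage (darker) gather closer to it.

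Levels on both sides of the limit were close. Just inside it, PKM, the pyruvate kinase gene, had 19.7% and 19.96% at position 72208807 of chromosome 15, and DKC1, the dyskerin gene, 16.9% and 19.9% at position 154777143 of chromosome X. Just outside, NUP205, a nuclear pore gene, had 20% and 18.1%, and PPIB, a cyclophilin gene, 18.5% and 20%. By replicate alone, 4108 sites of replicate 1 were weak and deep. Of these, 2753 were so in both, 375 reached 20% in replicate 2, 47 had under 100 reads there and 933 were not listed there, with a median level of 11.4%. In replicate 2, 5179 sites were weak and deep, of which 410 reached 20% in replicate 1, 755 had under 100 reads there and 1261 were not listed (median 11.6%). Sites near the 10% floor were thus often listed in 1 library only.

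Every weak site lay above the unconverted share of its gene, which the 10% floor of the lists already fixed, since the lowest gene conversion at a weak site was 91.87%. That share, 100% minus the conversion, had a median of 2.35% over weak sites, and the level was a median of 5.86 times as high, from 1.88 to 13.1 times. At 2609 weak sites it was at least 3 times as high, and at 144 it was less. Among the weak sites in genes of lowest conversion, LRFN4, a synaptic adhesion gene, had 19.2% and 14.9% at position 66859693 of chromosome 11 with a gene conversion of 91.8% and 91.9%. HSPA1B, an inducible HSP70 gene, had 16.2% of 679 and 14.5% of 867 reads with a conversion of 92.4% and 92.5%. HSPA1B has a near-identical neighbour gene, so the assignment of these reads is uncertain. GAS1, a growth arrest gene, had 15.8% and 17.9% with 92.6% and 92.5%. At the other end stood pseudogenes, with 98.9% conversion in RPSAP26 (levels 11.4% and 13.5%) and 98.8% and 98.9% in RPSAP8 (12.6% and 11.5%). The reads of both may belong in part to RPSA.

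Gene conversion was higher at weak sites. Its median was 97.65% (95% order-statistic interval 97.6 to 97.68) at weak sites and 97.15% (97.12 to 97.19) at the other deep sites, and the same gap was seen in replicate 1 (97.64% against 97.14%) and replicate 2 (97.66% against 97.17%). With 1 site of each kind per gene the gap was smaller, at 97.76% and 97.6%. When all deep sites were split into 5 equal parts by gene conversion, weak sites made up 15.1% of the lowest part (90.1 to 96.1% conversion, interval 13.6 to 16.7), then 20.04%, 25.05% and 30.9%, and 42.7% of the highest (97.9 to 98.9% conversion, 40.6 to 44.9). The share rose at each step. Sites are not replicates, so these intervals describe these libraries and no p-value is given.

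The largest p-value in the authors' deposited lists was 0.004, and the form of the test behind it is not stated. For scale, a binomial tail against the gene's conversion for 10 A reads of 100 is 0.00567 at 96.1% conversion and 1.54e-07 at 98.9%. The part of this listing limit in the pattern was not tested. At 300 reads or more in both replicates, with the 5 parts drawn anew, the weak share ran from 21.4% in the lowest part (17.2 to 26.2) to 57.7% in the highest (52.4 to 62.8).

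The number of listed sites in a gene moved with conversion too, and its part in the pattern was not tested. The median was 20 shared sites in the gene of a site in the lowest part and 4 in the highest. With the 5 parts drawn anew within each class of genes, the weak share in genes of 1 to 3 shared sites ran from 18.9% in the lowest to 53.8% in the highest part. It ran from 19.2% to 41.0% within genes of 4 to 9 shared sites, and from 14.2% to 29.4% within genes of 10 or more. The sources do not say whether methylated adenosines enter the conversion value. If they do, highly methylated sites lower the conversion of their own gene, and the part of this in the pattern was not tested. Weak sites were also a larger share of deeper sites, from 23.4% at 100 to under 150 reads (22.2 to 24.6) to 45.9% at 1000 reads or more (39.6 to 52.3). The rule uses coverage and limits both levels, so counting error at fewer reads can move sites out of the weak class. Its part in this rise was not tested. Median conversion moved with depth as well, from 97.2% to 97.7%.

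**Figure D2:**
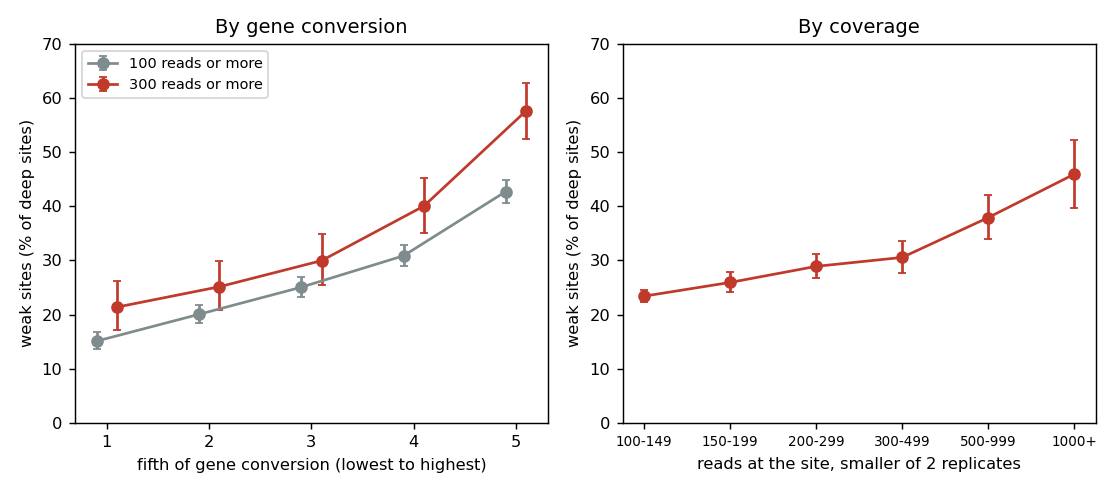
Left, weak sites as a percentage of deep sites (y axis) by 5 equal parts of gene conversion from lowest to highest (x axis), at 100 reads or more and at 300 reads or more. Right, the same percentage by coverage class (reads, smaller of 2 replicates). Points are shares with 95% Wilson intervals, and the share rises from 15.1% to 42.7% with conversion and from 23.4% to 45.9% with coverage. Coverage is also used by the rule, and the part of counting error in the rise was not tested.

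Weak sites lay in 1670 of the 3174 named genes with a deep site. Of these genes 1136 had 1 weak site, 322 had 2 and 212 had 3 or more. In 1134 genes weak and other deep sites stood together, and these genes held 2011 of the weak sites. In 464 of them the most methylated deep site reached 80% or more, so weak and almost complete methylation were present on transcripts of the same gene. In 536 genes all deep sites were weak, and these held 637 weak sites. The remaining 105 weak sites carried no gene name.

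SRRM2, a large serine and arginine rich splicing factor of nuclear speckles, had the most weak sites of any gene, 24 among 53 deep ones, at mean levels of 10.5 to 18.3%. Its other 29 deep sites had a median of 35.3% and reached 97.0%. XIST, the noncoding RNA of X inactivation, had 16 weak among 58 deep sites. SON, another speckle protein gene, had 12 of 60, and SPEN, a transcriptional repressor, 12 of 54. The median level of the other deep sites was 46.5% in XIST, 53.1% in SON and 53.1% in SPEN.

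JUN, an AP-1 transcription factor gene, had 10 weak among 30 deep sites, the weak ones spanning positions 58782162 to 58783977 of chromosome 1 (minus strand). Its weak site at 58783120 had 12.4% of 1431 reads in replicate 1 and 12.5% of 1633 in replicate 2, and stood 42 nt from a site of 97.5%. The site at 58783224 had 14.2% and 15.9%, 34 nt from a site of 96.5%. DDX17, an RNA helicase gene, had 10 weak among 20 deep sites, and SLIT2, an axon guidance ligand gene, 9 among 31. SRCAP, a chromatin remodeller gene, had 9 among 44, AMOT, a regulator of Hippo signalling, 9 among 20, and IRS4, an insulin receptor substrate, 8 among 41. The share of deep sites that were weak thus ran from 19.5% in IRS4 to 50% in DDX17, with 26.8% over all deep sites.

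Replicates were close at some well-covered sites of these genes and further apart at others. In SRRM2 (chromosome 16, plus strand) position 2767794 had 10.6% of 1122 and 10.3% of 1268 reads, position 2765674 had 10.8% and 10.7%, and position 2765686, 12 nt further on, had 13.98% and 14.6%. In the same gene position 2767898 had 14.1% of 908 and 18.2% of 1089 reads, and position 2767483 had 17.5% of 930 and 13.9% of 1122. In XIST (chromosome X, minus strand) a pair of weak sites stood 2 nt apart, with 10.6% of 4247 and 11.8% of 4883 reads at position 73852197 and 19.5% of 4503 and 19.2% of 5212 reads at position 73852199. In DDX17 (chromosome 22, minus strand) position 38485988 had 16.4% of 1325 and 16.7% of 1612 reads. In SLIT2 (chromosome 4, plus strand) the pair at 20253369 and 20253389 had 12.99% and 12.9% at the first and 13.2% and 14.5% at the other. Genes with many deep sites and a smaller weak share included WDR6 (7 of 44, 15.9%), which encodes a WD-repeat protein.

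In 18 genes with at least 3 deep sites every deep site was weak. PTPRU, a receptor tyrosine phosphatase gene, had 5, at mean levels of 14.3 to 18.9%, and METTL26, a methyltransferase-like gene, had 5 at 13.2 to 15.5%. JPT1 had 4 at 11.3 to 15.8%. RPL3, a large-subunit ribosomal protein gene, had 3, the deepest with 14.1% of 4499 and 14.7% of 5277 reads at position 39313695 of chromosome 22. EIF1, which takes part in start codon selection, had 3 at 11.4 to 18.3%, and EIF3C, a subunit of initiation factor 3, had 3 at 10.9 to 12.4%. EIF3C has a near-identical copy, between which the authors' alignment may have split reads. NENF, a secreted neurotrophic factor gene, and SDF4, a Golgi calcium-binding protein gene, had 3 each. Deep sites were not all sites: shared sites under 100 reads reached 78.1% in JPT1, 53.7% in NENF and 87.9% in SDF4.

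Over the 536 genes whose deep sites were all weak, 458 had a single deep site, and 336 also had shallower shared sites. In 230 genes every shared site stayed under 20% in both replicates. Median conversion was 98.1% (interval 98.06 to 98.14) in these 536 genes and 97.59% (97.53 to 97.63) in the 1504 genes with no weak site. The median number of shared sites was 2 and 5, and the median of the authors' gene coverage in replicate 1 was 74.9 and 56.1. Conversion, number of sites and coverage moved together here, and their separate parts were not tested.

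**Figure D3:**
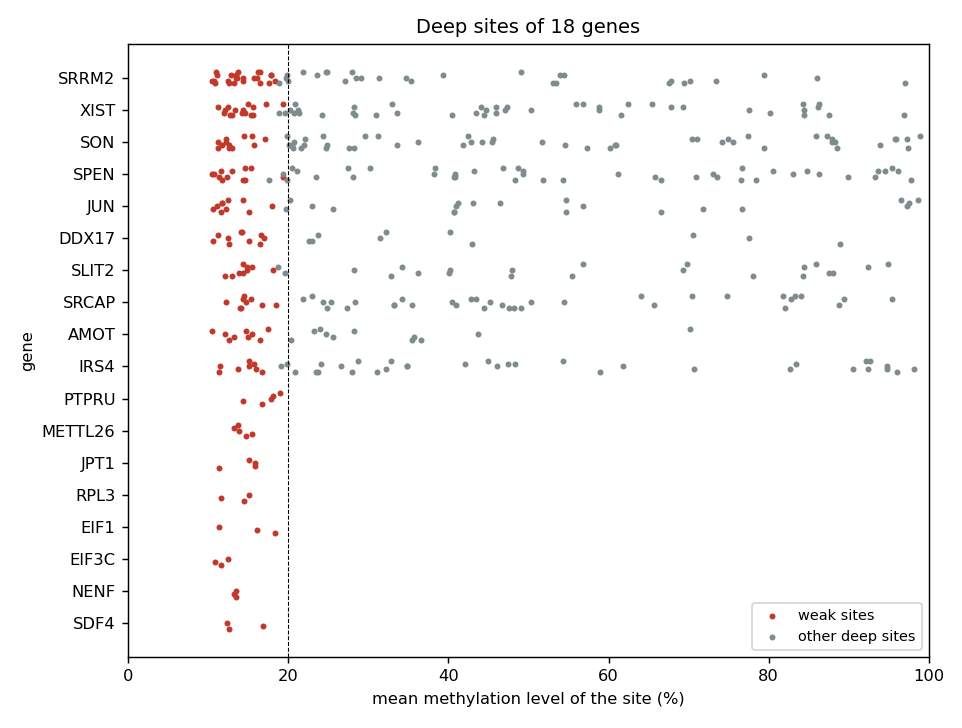
Mean methylation level (x axis, %) of every deep site in 18 genes (y axis), the 10 with the most weak sites above the 8 with the most deep sites among those whose deep sites were all weak. Red points are weak sites, grey points other deep sites, and the dashed line marks 20%. In SRRM2 24 of 53 points are red and the grey ones reach 97.0%, while PTPRU and METTL26 have 5 red points each and no grey one.

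Weak sites stood further from other listed sites. The nearest shared site on the same strand lay at a median of 68 nt from a weak site (interval 63 to 72) and 44 nt from another deep site (42 to 45). A neighbour within 30 nt was present at 29.8% of weak sites (28.1 to 31.6) and 37.9% of other deep sites (36.9 to 39.0), and within 100 nt at 60.2% and 73.5%. In the 1134 genes with both kinds the shares within 30 nt were 34.9% and 43.7%. With only the deepest site of each kind in a gene they were 25.6% and 26.2%, which is a gap within the intervals. The number of sites in the gene moved with this result. Its median was 8 at weak sites and 11 at other deep sites.

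Neighbours of weak sites covered all levels. The nearest shared site within 100 nt had a median level of 31.1% (29.1 to 33.5) beside weak sites and 38.9% (37.6 to 40.5) beside other deep sites, but with 1 site of each kind per gene the order turned, at 35.8% and 33.9%. A neighbour under 20% was found beside 30.1% of the weak sites that had one within 100 nt, against 23.9%. A neighbour of at least 80% was found beside 13.4%, against 18.9%. Distances of 4 to 30 nt were multiples of 3 in 41.2% of cases (37.9 to 44.6) at weak sites and 40.1% (38.4 to 42.0) at other deep sites.

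Some weak sites lay within a few bases of an almost fully methylated one. A deep site of at least 80% stood within 10 nt of 33 weak sites (1.20%) and within 30 nt of 110. The closest were 4 nt apart. In CSNK1D, a casein kinase gene, position 82244611 of chromosome 17 (minus strand) had 13.8% of 130 and 13.6% of 177 reads, and position 82244615 had 85.8% and 89.6%. In CHPF, a chondroitin polymerising factor gene, position 219539884 of chromosome 2 had 11.4% and 13.6%, and position 219539888 had 88.7% and 93.3%. In WDR6 position 49013747 of chromosome 3 had 11.8% of 186 and 13% of 223 reads, and position 49013752 had 92.9% and 93.0%. In FAF2, a ubiquitin-binding protein gene, position 176507234 of chromosome 5 had 11.5% and 13.1%, and position 176507240 had 94.7% and 94.4%. The wide gap in these pairs was fixed by how they were picked, as a weak site beside a deep site of at least 80%.

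**Figure D4:**
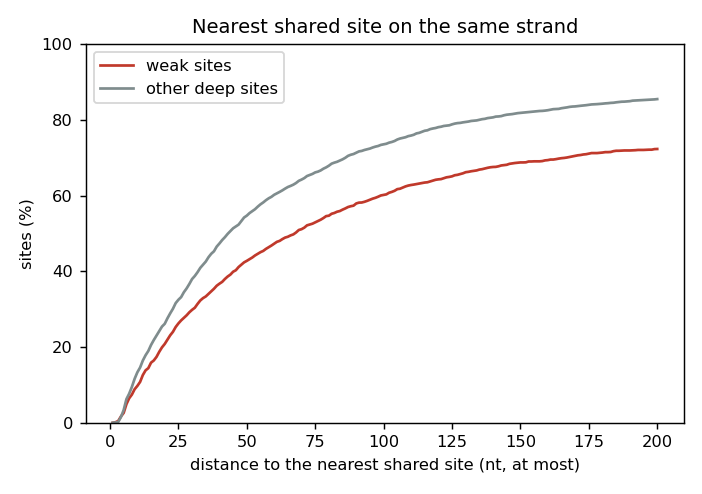
Percentage of sites (y axis) whose nearest shared site on the same strand lies at most the given distance away (x axis, nt), for weak sites in red and other deep sites in grey. At 30 nt the curves stand at 29.8% and 37.9%, and at 100 nt at 60.2% and 73.5%.

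Positions were compared along protein-coding genes. The last 10% of the annotated gene held 45.8% of weak sites (43.9 to 47.8) and 43.6% of other deep sites (42.4 to 44.8). The first 10% held 10.6% (9.46 to 11.9) and 9.41% (8.75 to 10.1). In the first 5 nt of the gene stood 32 weak sites (1.30%, 0.923 to 1.83) and 61 other deep sites (0.878%, 0.684 to 1.13), and 21 and 47 of them were at the first nucleotide. With 1 site of each kind per gene the order turned, to 1.18% and 1.72% in the first 5 nt and to 47.8% and 49.9% in the last 10%. Within 50 nt the shares were 2.07% (1.58 to 2.72) and 1.09% (0.875 to 1.37). Pseudogenes held 4.54% of weak sites (3.82 to 5.38) and 2.81% of the other deep sites (2.46 to 3.21), and long noncoding RNA genes held 1.63% and 1.61%. At 300 reads or more pseudogenes held 7.5% and 5.12%. Reads assigned to pseudogenes may belong in part to the genes they copy, which was not tested.

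Gene lists differed in how many of their deep sites were weak. Over all protein-coding genes 2459 of 9409 deep sites were weak (26.1%). Among cytosolic ribosomal protein genes 15 of 35 were (42.9%, 27.98 to 59.1), in 11 of 17 genes. Chaperone genes had 20 of 54 (37.0%), nuclear oxidative phosphorylation genes 11 of 31 (35.5%), translation factors 25 of 72 (34.7%), actin and tubulin genes 18 of 54 (33.3%), and SR and hnRNP splicing genes 19 of 60 (31.7%). Aminoacyl-tRNA synthetases had 14 of 45 (31.1%), glycolysis genes 9 of 29 (31.0%), proteasome genes 8 of 29 (27.6%) and histone methyltransferases and demethylases 27 of 104 (26.0%). Of these intervals, that of the ribosomal protein genes lay above the share over all protein-coding genes, and those of the other 9 lists included it. The intervals of the lists, here and below, count sites and not genes, and were not adjusted for the number of lists. The lists were chosen with earlier results known, and no test of them was made.

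The remaining 4 lists had lower shares. ZNF genes had 18 weak of 124 deep sites (14.5%, 9.38 to 21.8), homeobox, SOX and FOX factors 41 of 232 (17.7%, 13.3 to 23.1), writers, readers and demethylases of m6A 11 of 68 (16.2%, 9.28 to 26.7), and immediate early genes 23 of 96 (24.0%, 16.5 to 33.4). The intervals of the ZNF and homeobox lists lay below 26.1%, and those of the m6A list and the immediate early genes included it. Median conversion was 96.1% in ZNF genes, 95.7% in the homeobox list and 95.5% in the m6A list, against 97.2% over all protein-coding genes. These had the lowest median conversion and the lowest weak shares of the 14 lists. Median conversion was 97.7% in ribosomal protein genes, 97.95% in proteasome genes and 98.2% in glycolysis genes. The intervals of the weak shares of these last lists overlapped. Deep sites of ribosomal protein genes had a median of 904 reads, against 154 over all protein-coding genes. The parts of conversion and coverage were not tested.

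Members of the lists show the range. UQCRH, a complex III subunit gene, had 16.0% of 783 and 17.1% of 853 reads at position 46316593 of chromosome 1. TPI1, triosephosphate isomerase, had 16.9% of 1224 and 15.2% of 1410 reads at position 6870423 of chromosome 12. HSP90AB1, a cytosolic chaperone gene, had 15.4% of 1007 and 17.7% of 1239 reads. HNRNPA1, a splicing repressor gene, had 18.2% and 16.9% at position 54285043 of chromosome 12, and SRSF4, a splicing activator gene, 14.3% and 14.5%.

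YARS1, tyrosyl-tRNA synthetase, held 3 weak sites, the deepest with 11.2% of 993 and 13.3% of 1145 reads. ALKBH5, the m6A demethylase, had 17.3% of 358 and 16.9% of 433 reads at position 18184090 of chromosome 17, and RBM15, an adaptor of the writer complex, 18.4% and 19.7% at position 110342008 of chromosome 1. SOX4, a developmental transcription factor gene, had 11.2% of 986 and 10.8% of 1206 reads, and ZNF503 had 12.1% and 11.4%. The weak sites of these gene lists had medians between 12.4% and 15.6%, and all weak sites in protein-coding genes had a median of 14.2%. The floor of the deposited lists and the limit of the rule hold every weak site within a narrow range of levels. These medians could therefore not lie far apart, and nothing is read from their closeness.

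**Figure D5:**
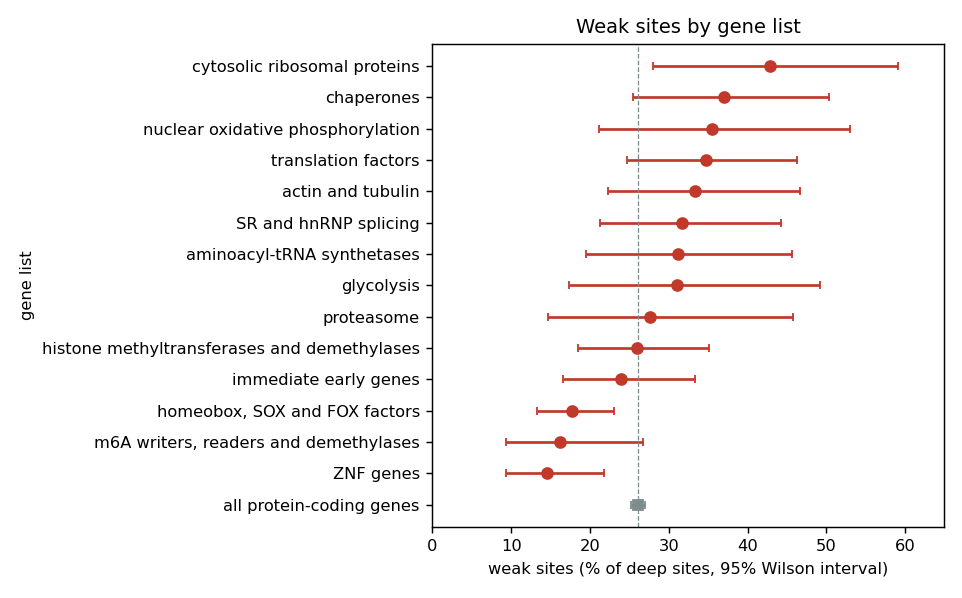
Weak sites as a percentage of the deep sites of each gene list (x axis, with 95% Wilson intervals), for 14 lists (red circles) above all protein-coding genes (grey square, dashed line at 26.1%). Ribosomal protein genes stand highest at 42.9% and ZNF genes lowest at 14.5%.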

How the data were processed

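For each replicate the authors deposited a list of called sites. Its columns, per the file headers, are counts of reads showing A or G and of reads showing A, their ratio as a fraction, the gene's conversion as a fraction, the gene's coverage, and p-values, raw and adjusted. Tools named in the submitters' processing notes, without roles, are SAMtools, Bowtie, STAR and Trim Galore 0.6.6, with the build GRCh38. The sources used here do not give the site caller or the use of molecular identifiers. The deposited lists start at 15 reads and a level of 10%, and their largest adjusted p-value was 0.00401.

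Levels were recomputed from the deposited counts. Weak sites were set beside the other shared sites with at least 100 reads in both lists, by shares with 95% Wilson intervals and medians with 95% order-statistic intervals. Fisher's exact test with Benjamini-Hochberg adjustment (SciPy 1.17.1) was run on all shared sites after a test on simulated data. Of 3174 gene names at deep sites, 3148 matched RefSeq's GRCh38.p14 table by symbol or unique synonym on the same chromosome. Positions are as the files give them.

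No genome was used, so coding and untranslated regions were not analysed here and motifs only where RefSeq's tables hold sequence. Members and lists were chosen with earlier results of these data known. The named genes are the 10 with most weak sites, the 8 with most deep sites, the 8 with most deep sites all weak, the 10 deepest weak sites, those of highest and lowest conversion, those at the limit, the closest pairs with a site of at least 80%, and the deepest of each list.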

Additional observations from a re-analysis of the deposited data

How the results depend on the processing

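Depth limits single sites: the interval of a weak site reached a median of 3.56 points to each side. Of 67 alternatives, 39 gave the same reading, 21 moved it and 7 turned the order of the classes, and for these the cause was not tested. Some of the 39 could not come out otherwise. Leaving out pseudogenes and unnamed sites does not touch the gene start, the last 10% of the gene or the gene lists, which use protein-coding genes only. Fisher's test called no shared site, so no subset of them could hold a call. At 300 reads or more, weak sites had a conversion of 97.81%, a neighbour within 30 nt at 26.3%, a neighbour level of 25.8%, 41.6% in the last 10% of the gene and 7.5% in pseudogenes; 15.4% lay in the consensus against 15% of other sites, and 55.8% of genes held a weak site against 52.6% with 100 reads. With a limit of 15% that was 28.8% of genes, and 21.1% of weak against 18.9% of other sites lay in the consensus. By 1 replicate alone 64.9% to 67.1% of genes held a weak site, and 30.4% to 32.1% of weak sites had a neighbour within 30 nt. Without pseudogenes and unnamed sites conversion was 97.57%, and 19.4% against 17.9% lay in the consensus. With 1 site of each kind per gene, weak sites had a conversion of 97.76% (other sites 97.6%) and a neighbour at 25.6% (26.15%). The neighbour level was 35.8% (other sites 33.9%), and 20% lay in the consensus (17.65%). At the gene start lay 1.18% (1.72%), in the last 10% of the gene 47.8% (49.9%) and in pseudogenes 5.80% (4.65%). With genes as units conversion was 98.1% (97.59%). Other windows changed values by construction: 9.74% had a neighbour within 10 nt, 60.2% within 100 nt, 33.0% counting sites listed in either file, 34.9% in genes with both kinds, a view added after seeing the data, 2.07% lay in the first 50 nt, and 31.1% lay in the consensus without the first 5 nt. No paired analysis was possible because the labels give 1 group. Not run were coding and untranslated regions, the consensus outside RefSeq's windows, Fisher's test with 1 replicate, and conversion within genes, which is 1 value per gene.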

Other observations

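The mitochondrial transcriptome, chosen after its values were seen, held 5 deep shared sites, of which 1 was weak. ND5, a complex I subunit gene, had 17.1% of 1106 and 18.2% of 1409 reads at position 13710 of the mitochondrial chromosome. The other 4 had intermediate levels. In RNR1, the small ribosomal RNA, the adjacent positions 1583 and 1584 had 37.4% and 36.6%, and 42.3% and 43.5%. In RNR2, the large ribosomal RNA, position 2617 had 39.8% of 3020 and 41.2% of 3506 reads. Position 12229, assigned to the serine transfer RNA TRNS2, had 39.7% and 38.5%. GLORI reads any adenosine that resists deamination as A, so these levels do not show which mark is present.

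Of the 105 weak sites without a gene name, 66 lay inside the span of a RefSeq gene, without regard to strand, and 39 outside any. The deepest, at position 9437440 of chromosome X (plus strand), had 11.2% of 5150 and 12.4% of 6092 reads. A set of 4 lay in the span of DDX17, the deepest at position 38489365 of chromosome 22 with 14.4% of 1033 and 14.6% of 1263 reads, beside the 10 weak sites that carry the gene's name.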
